A study of Mus musculus with 5 samples.

Results

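The genes described here encode the histones, the proteins around which nuclear DNA is wound, and were measured in mouse neuroepithelial cells (NECs). They were chosen by name alone. Symbols beginning with Hist1h, Hist2h, Hist3h or Hist4h form the cluster class of 63 genes, and symbols beginning with H2af, H3f3 or H1f form the variant class of 15 genes, which makes 78 of the 21801 genes in the deposited table. By protein the cluster class holds 6 H1, 19 H2A, 18 H2B, 7 H3 and 13 H4 genes. The variant class holds 2 H2A.Z, 2 H3.3, 2 macroH2A, 2 replacement H1 and 5 germline genes, with H2afx and H2afj.

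RNA sequencing was done on 5 libraries, all labelled as replicates of NEC and as neural progenitor cells of the mouse. NECs are the dividing epithelial cells that line the early neural tube, and the series places them in the developing neocortex and calls them purified. No genotype, treatment or age is given in the sources used here, and the labels do not tie replicates to animals, so every p-value covers just the sample-to-sample spread seen here, technical spread included. With 1 group, genes were compared with a fixed level, with each other within a library, and between libraries.

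Replication-dependent histone genes lie in clusters, have no introns in most cases and are transcribed in S phase, when DNA is copied. Their mRNAs are the main class in animal cells without a poly(A) tail: they end a few bases after a short hairpin, the stem-loop, which is bound by the protein Slbp and cut with the help of the U7 small nuclear RNA. Replacement variants are made throughout the cell cycle from ordinary polyadenylated mRNAs and are put into chromatin by their own chaperones. In these libraries cDNA was primed with poly-dT, which anneals to poly(A), so a transcript without a tail is not expected to be primed at its end. A level given below is therefore the level of what this priming captured, and how it relates to the cells' total histone mRNA was not tested. Since whole samples were sequenced, fewer cells of a type and less RNA per cell cannot be told apart.

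Depth and sample make-up were as follows. Low values implied 20.6 to 28.35 M reads per library (1 M = 1000000), and 1 read in a transcript of 500 bases was worth 0.118 to 0.162 FPKM (fragments per kilobase of transcript and per 1000000 mapped reads, a unit already divided by length). Pearson's r across genes between libraries ran from 0.990 to 0.997 over 10 pairs, with genes not being independent replicates. In the test against 1 FPKM given further below, 52.3% of all genes lay above. Of 12 neural progenitor markers 11 lay above 1 FPKM and Hes5 neither way. Transcripts of markers of other cells were detected too: mesenchyme markers summed to 37.8 to 139 FPKM with 8 of 8 above 1 FPKM, and surface ectoderm markers to 96.4 to 145 FPKM with 5 of 7 above. Neuron markers summed to 63.1 to 109 FPKM with 3 of 8 above, endothelial markers to 6.18 to 15.9 FPKM with 2 of 6 above, erythroid markers to 3.04 to 10.5 FPKM with 0 of 7 above (of 8 names listed), and myeloid markers to 0.0830 to 0.501 FPKM with 0 of 5 above and Aif1 and Tyrobp listed at 0. The shares above in neuron, endothelial, erythroid and myeloid markers were all under that of all genes.

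The stem-loop is the sequence known for replication-dependent histone mRNAs, so examples are shown for members the results turn on. The letters GG, 2 bases of any kind, CTTTT, 1 of any kind, AG, 2 of any kind and CC, in that order, were searched on the sense strand within 150 bases after the stop codon in 1 GENCODE M21 transcript per gene, the longest coding one, of the same build (mm10), and the 16 bases in capitals below mark the match, with 5 bases on each side.
Hist1h4d: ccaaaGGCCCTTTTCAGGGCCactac
Hist1h4i: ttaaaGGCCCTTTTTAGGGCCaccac
Hist1h4b: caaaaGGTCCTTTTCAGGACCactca
Hist1h2ao: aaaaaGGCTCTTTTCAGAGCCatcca
Hist1h2bk: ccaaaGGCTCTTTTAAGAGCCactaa
Hist1h3e: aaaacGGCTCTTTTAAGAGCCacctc
Hist1h1e: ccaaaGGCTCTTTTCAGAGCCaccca
H2afx: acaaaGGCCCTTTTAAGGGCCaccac

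These stretches lie in the 3′ untranslated ends of single-exon genes. They are at chr13:23581945-23581970 (plus strand) for Hist1h4d, chr13:22040961-22040986 (minus) for Hist1h4i, chr13:23757361-23757386 (plus) for Hist1h4b and chr13:21810893-21810918 (plus) for Hist1h2ao. The others are at chr13:22036295-22036320 (plus) for Hist1h2bk, chr13:23561898-23561923 (minus) for Hist1h3e, chr13:23621777-23621802 (minus) for Hist1h1e and chr9:44335235-44335260 (plus) for H2afx. The letters stood 22 to 59 bases after the stop codon in 40 members, which were 39 cluster genes and H2afx, the gene of the DNA damage variant H2A.X. Hist1h2bp is not counted, although 1 of its 2 M21 transcripts, the one not used, holds the letters.

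The stem differed by protein type. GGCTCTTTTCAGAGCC was the sequence of 22 members, all H1, H2A, H2B or H3 genes, whereas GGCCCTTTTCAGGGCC was found in 7 members, all H4 genes. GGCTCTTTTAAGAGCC stood in 5 H1, H2B or H3 genes, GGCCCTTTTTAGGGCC and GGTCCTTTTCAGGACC in 2 H4 genes each, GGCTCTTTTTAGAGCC in the H2A gene Hist2h2ac alone and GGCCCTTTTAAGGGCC in H2afx alone. Across all 20901 coding genes with at least 16 bases annotated after the stop codon, 46 held such letters (0.220%), and 6 of those were not members: Hist1h3d, Hist1h3f, H2bfm, Lrrc75b, and Hist1h2bh and Hist1h2bm under identifiers other than the table's. A match is a description of letters and not of a working site.

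Variant transcripts exceeded cluster transcripts in summed level in every library. The 63 cluster genes summed to 370, 473, 471, 392 and 358 FPKM in replicates 1 to 5, and the 15 variant genes to 9141, 10103, 10475, 10866 and 10463 FPKM. The ratio of the sums was 25.1 ± 3.4 (SD, n = 5), from 21.3 to 29.3. The cluster genes took 0.0517% ± 0.0069 of all FPKM and the variants 1.28% ± 0.04. Some cluster genes of GENCODE M21, Hist1h2aj and Hist1h3d among them, are not in the table under these symbols, so the cluster sum does not cover every copy. Both sums rest on few genes: H2afz alone made up 74.3% ± 0.4 of the variant sum, and Hist1h4d with Hist1h1b 57.3% ± 3.2 of the cluster sum.

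The typical member of the classes differed less than the sums. The cluster median was 1.68, 1.72, 1.64, 1.35 and 1.40 FPKM in replicates 1 to 5, and the variant median, which fell on H2afx each time, was 3.63, 3.40, 5.24, 2.93 and 3.93 FPKM. The variant median was the higher in 5 of 5 libraries, by 0.90 ± 0.23 (SD, n = 5) on the log2(FPKM + 1) scale, which compresses differences between low levels. That difference depends on which members are counted. It was 4.18 without the germline members of both classes, and 0.27 over the 33 cluster and 14 variant genes in which at least 50% of 75-base windows, the length of a read, were found in no other gene. The only variant left out of the latter was H2afz, the highest. The variant median then fell between H2afx and the next lower variant. On the cluster side the median of mean FPKM changed little, from 1.54 over all 63 genes to 1.47 over those 33.

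Each gene's level was tested against 1 FPKM with limma across all 19706 genes above 0 in at least 1 library, of which 52.3% were called above and 41.4% below. Of the 62 cluster genes tested 34 lay above (54.8%), 14 below (22.6%) and 14 neither way, and Hist1h3b was listed at 0 in all libraries. At this level the share above was near that of all genes and the share below was smaller. Of the 14 variants tested 8 lay above and 4 below, all 4 being germline genes (1 without replicate 5, in which alone the other 3 were above 0), with H1fx and H2afj neither way and H1foo listed at 0 in all libraries. Both readings change with the level. Against 2 FPKM, 18 cluster genes lay above (29.0%, against 45.8% of all genes) and 30 below (48.4% against 48.6%). Against 0.5 FPKM, 49 lay above (79.0% against 58.3%) and 7 below (11.3% against 34.9%). The cluster genes thus lay close to 1 FPKM, with fewer far below or far above it than among all genes.

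**Figure D1:**
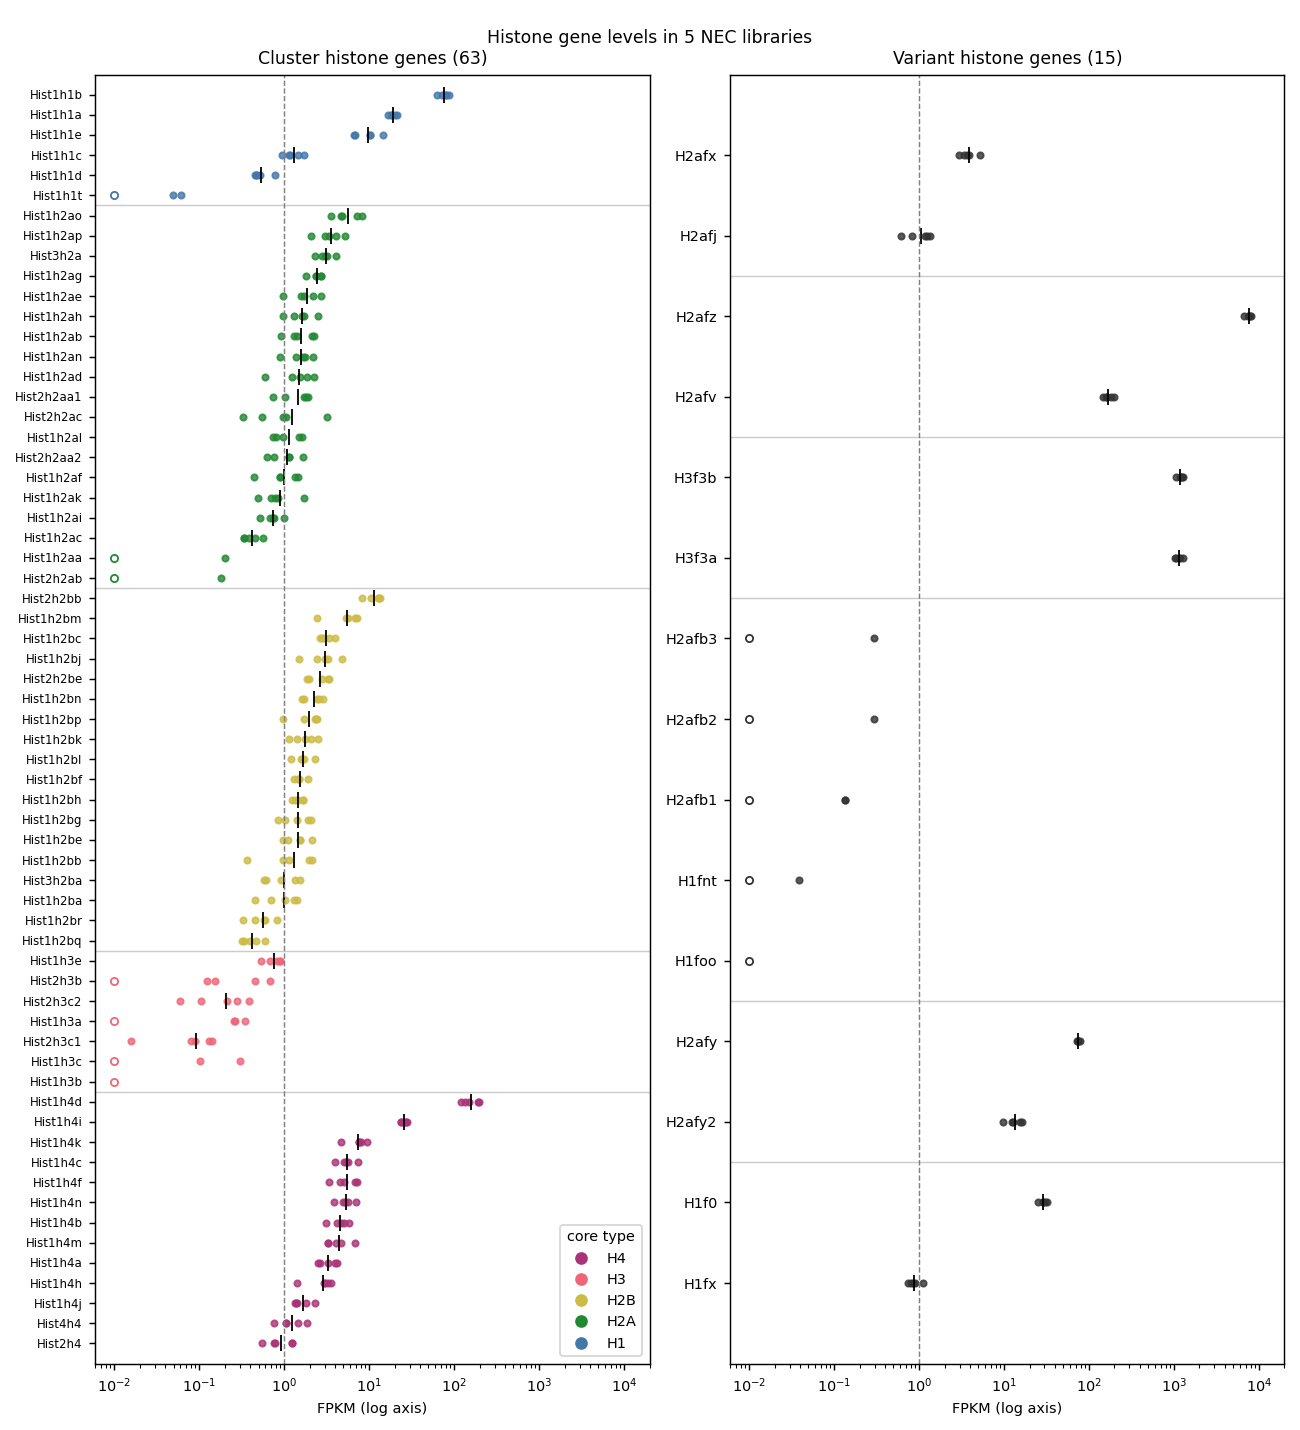
FPKM of every histone gene on log axes, with 1 point per library (5 libraries), a black tick for the mean of genes above 0 in all 5, and open circles at the left for libraries listed at 0; colours give the cluster type and the dashed line marks 1 FPKM. Most cluster genes lie between 1 and 10 FPKM, the cluster H3 genes in the table lie under 1 FPKM, and H2afz, H3f3b and H3f3a stand above 1000 FPKM.

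Among the variants, H2A.Z came first. H2A.Z replaces H2A around transcription start sites and at regulatory elements, and is encoded by H2afz and H2afv. H2afz (chr3:137864487-137866922, plus strand, 5 exons) was at 6746, 7504, 7754, 8146 and 7783 FPKM in replicates 1 to 5, a mean of 7587 ± 523, and ranked 2 among all genes. H2afv was at 181, 199, 157, 148 and 163 FPKM, a mean of 170 ± 20.4. No library of H2afv came near any of H2afz: the within-library difference was 5.48 ± 0.25 on the log2(FPKM + 1) scale, H2afz higher in 5 of 5.

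All tests of pairs were two-sided exact sign-flip permutation tests over 32 sign patterns, which cannot give a p under 0.0625 with 5 libraries. Of 9 pairs tested 8 had that smallest p, with a Benjamini-Hochberg adjusted p = 0.0703 each, so none passed 0.05. In H2afz 38.3% of the 75-base windows were unique, the lowest share among the variants, and the rest occurred in at least 1 of 6 other genes.

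H3.3, the replacement H3 deposited outside replication, is encoded by H3f3a and H3f3b, whose coding regions give the same protein. H3f3b was at 1071, 1231, 1267, 1178 and 1221 FPKM (1194 ± 75.4) and H3f3a at 1022, 1051, 1167, 1277 and 1165 FPKM (1136 ± 102). The ranges overlapped, H3f3a was the higher only in replicate 4, and the difference, H3f3a minus H3f3b, was -0.07 ± 0.12 (exact sign-flip permutation test, p = 0.25, adjusted p = 0.25). Each of these genes exceeded the sum of all 63 cluster genes in every library. In H3f3a 72.1% of the 75-base windows were unique, the rest occurring among 29 other genes. In H3f3b 95.7% were unique, the rest occurring among 3 others. The part of shared reads in the small difference between H3f3a and H3f3b was not tested.

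The macroH2A genes encode H2A variants with a large extra domain that mark inactive chromatin. H2afy was at 74.7, 72.4, 74.5, 74.5 and 79.2 FPKM (75.1 ± 2.49), and its SD of log2(FPKM + 1), 0.05, was the smallest among members averaging 1 FPKM or more. H2afy2 was at 12.3, 9.67, 16.4, 12.8 and 15.4 FPKM (13.3 ± 2.69), below H2afy in 5 of 5 libraries by 2.43 ± 0.25 on the log2(FPKM + 1) scale.

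H2afx and H2afj encode H2A.X, which is phosphorylated beside DNA breaks, and H2A.J. H2afx is a variant by name but carries a stem-loop, and its annotated transcript runs 822 bases past it; it is known to give both stem-loop and polyadenylated mRNA. It was at 3.63, 3.40, 5.24, 2.93 and 3.93 FPKM (3.83 ± 0.87), near the cluster genes in level. H2afj was at 1.24, 1.36, 1.19, 0.607 and 0.824 FPKM (1.04 ± 0.32), below H2afx in 5 of 5 libraries by 1.24 ± 0.26. H2afz exceeded H2afx by 10.63 ± 0.27.

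The replacement linker histones H1f0 and H1fx bind the DNA between nucleosomes, and H1f0 is known for its rise in cells that stop dividing. H1f0 was at 28.6, 29.2, 31.9, 25.0 and 30.7 FPKM (29.1 ± 2.61). H1fx was at 1.12, 0.799, 0.733, 0.902 and 0.855 FPKM (0.881 ± 0.147), lower than H1f0 in 5 of 5 libraries by 4.00 ± 0.20. The cluster H1 gene Hist1h1c stood at 1.74, 1.46, 1.18, 1.14 and 0.955 FPKM, also below H1f0 in 5 of 5, with a difference, Hist1h1c minus H1f0, of -3.72 ± 0.24.

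The germline variants were at the edge of detection. H1foo, the oocyte linker histone, was listed at 0 throughout. H2afb2 and H2afb3 were listed at 0 in replicates 1 to 4 and at 0.293 FPKM in replicate 5, which is about 1 read each. H2afb1, whose identifier is named H2al2a in M21, was at 0.135 and 0.134 FPKM in replicates 1 and 5 and listed at 0 in the others, and H1fnt, a spermatid linker histone, at 0.0384 FPKM in replicate 5 only. Differences at these levels were not detectable at this depth.

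Cluster H4 genes were the type with the largest share above 1 FPKM, 11 of 13 (84.6%), and 0 below. Among all genes tested 52.3% lay above and 41.4% below. The H4 type median was 4.22, 5.31, 5.02, 4.62 and 3.41 FPKM. Hist1h4d (chr13:23581598-23582735, plus strand) led the whole class at 122, 194, 198, 151 and 136 FPKM (160 ± 34.3), with replicates 2 and 3 the highest. It rested on about 2617 to 4761 reads per library, and 96.3% of its windows were unique. Hist1h4i followed at 27.7, 27.2, 26.8, 23.5 and 23.6 FPKM (25.8 ± 2.06) and Hist1h4k at 7.70, 9.42, 7.68, 4.66 and 8.0 FPKM (7.49 ± 1.74). The H4 proteins of these genes are known to be alike, so the spread is one between gene copies. Hist2h4 was the lowest, at 0.777, 1.25, 0.551, 1.23 and 0.768 FPKM, and was called neither way.

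Cluster H1 genes, the linker histones made in S phase, were split, with 3 of 6 above 1 FPKM, 2 below and 1 neither way. These shares, 50% above and 33.3% below, stood near those of all genes, 52.3% and 41.4%. Hist1h1b was at 72.4, 80.8, 88.4, 80.2 and 63.8 FPKM (77.1 ± 9.35) and Hist1h1a at 18.4, 18.3, 20.3, 21.4 and 16.9 FPKM (19.1 ± 1.8), both with 100% of windows unique. Hist1h1e was at 14.4, 10.3, 10.2, 6.89 and 6.56 FPKM (9.66 ± 3.17), highest in replicate 1 and lowest in replicates 4 and 5. Its gene model overlaps Gm11398 and Hist1h2be on the same strand, so its reads cannot be fully assigned to it. Hist1h1d lay below 1 FPKM (0.539 ± 0.133), and the testis linker histone Hist1h1t was at 0.0618 and 0.0498 FPKM in replicates 1 and 4 and listed at 0 in the others.

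Cluster H2A genes lay close to 1 FPKM, 8 of 19 above, 4 below and 7 neither way. The shares were 42.1% above and 21.1% below, against 52.3% and 41.4% of all genes. Hist1h2ao was the highest at 4.70, 7.12, 8.34, 4.80 and 3.57 FPKM (5.71 ± 1.96), followed by Hist1h2ap at 2.06, 4.08, 5.18, 2.99 and 3.40 FPKM (3.54 ± 1.17). Both peaked in replicate 3, and they share almost all of their sequence with each other and with other H2A genes, with 6.90% and 7.35% of windows unique, so their values are uncertain as values of single genes. Hist3h2a, on chromosome 11, was at 2.78, 4.05, 2.28, 3.02 and 3.24 FPKM (3.07 ± 0.65) and overlaps Trim17 on the same strand. Hist2h2ab was at 0.180 FPKM in replicate 1 and listed at 0 in the rest.

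Cluster H2B genes lay above 1 FPKM in 12 of 18 cases (66.7%, against 52.3% of all genes) and below in 2 (11.1%, against 41.4%). Hist2h2bb was at 8.22, 13.4, 12.6, 10.6 and 13.1 FPKM (11.6 ± 2.18), lowest in replicate 1. In GENCODE M21 its identifier is a long non-coding RNA of 2 exons, and another gene carries the histone symbol, so the value may not be that of a histone mRNA. Hist1h2bm, whose identifier was not among those of M21, was at 5.59, 6.78, 2.42, 5.28 and 7.21 FPKM (5.46 ± 1.88), low in replicate 3. Hist1h2bc was at 4.01, 2.93, 2.63, 3.36 and 2.83 FPKM (3.15 ± 0.55), and Hist1h2bq, the lowest, at 0.603, 0.463, 0.321, 0.397 and 0.334 FPKM (0.423 ± 0.115).

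The 7 cluster H3 genes in the table were the low end of the class. Of these, 6 of the 6 tested lay below 1 FPKM, against 41.4% of all genes, and Hist1h3b was listed at 0. Hist1h3d, Hist1h3f, Hist1h3h and Hist1h3i are in M21 but not in the table under these symbols. The low level therefore describes the copies listed and not cluster H3 as a type. Hist1h3e was the highest at 0.826, 0.902, 0.534, 0.888 and 0.681 FPKM (0.766 ± 0.156; limma, adjusted p = 0.0268), and it was no longer called without replicate 3, without replicate 5 or with a pseudocount of 0.1. Hist2h3c2 was at 0.214, 0.280, 0.0593, 0.388 and 0.106 FPKM, Hist2h3b at 0.152, 0.676, 0.123 and 0.452 FPKM in replicates 1, 3, 4 and 5 and listed at 0 in replicate 2. Hist1h3c was at 0.102 and 0.303 FPKM in replicates 1 and 5 and listed at 0 in the others. The H3 cluster genes in the table thus stood far below H3f3a and H3f3b, while their windows were unique in a median of 40.6%, so reads shared between copies could have been left out or split. How the authors' counting treated such reads is not given in the sources used here, and its part in the low H3 levels was not tested.

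By chromosomal cluster, the 50 Hist1 genes on chromosome 13 had a median of 1.64 FPKM (31 above, 10 below) and the 10 Hist2 genes on chromosome 3 a median of 0.992 FPKM (2 above, 4 below). For all genes tested the shares were 52.3% above and 41.4% below. Only 5 cluster genes had a mean of at least 10 FPKM, 40 lay between 1 and 10, and 18 under 1.

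Sequence shared between copies was much more common in the cluster class. A median of 57.6% of 75-base windows was unique in cluster genes (61 with a transcript in M21) and 95.5% in variants. By type the medians were 99.3% for H1, 75.4% for H4, 55.7% for H2B, 40.6% for H3 and 34.5% for H2A. In 28 of 61 cluster genes under 50% of windows were unique, and in 5 none was. The median level was alike on both sides of that limit, 1.47 FPKM in the 33 genes with at least 50% unique and 1.56 FPKM in the 28 with less, but all 5 genes of 10 FPKM or more belonged to the former and the highest of the latter was Hist1h4k at 7.49 FPKM.

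**Figure D2:**
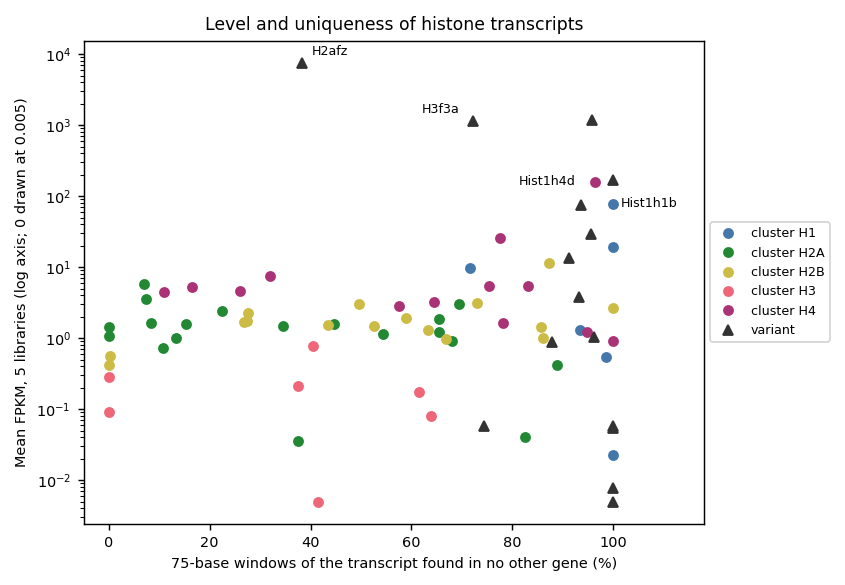
Mean FPKM of each histone gene (log axis, 5 libraries, genes at 0 drawn at 0.005) against the share of 75-base transcript windows found in no other gene; circles are cluster genes coloured by type and triangles variant genes. Cluster genes above 10 FPKM all have at least 50% of windows unique, and H2afz is the only variant with less.

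The annotated 3′ end bears on priming, since a transcript that runs on past the stem-loop could carry a poly(A) tail. In 22 cluster genes the M21 transcript ran more than 50 bases past the stem-loop, and these had a median of 1.23 FPKM (0 to 160; 8 above, 7 below). In 17 genes it ended within 50 bases of it, with a median of 2.42 FPKM (0.173 to 5.71; 12 above, 1 below). These groups differed in shared sequence as well, with medians of 77.9% and 27.4% of windows unique. They also differed in transcript length, by which FPKM is divided. It ran from 520 to 7425 bases in the former and from 391 to 586 bases in the latter. The part of shared sequence and of length in the levels was not tested. Over all genes tested, 52.3% were called above 1 FPKM and 41.4% below. A further 12 models stopped less than 16 bases after the stop codon, among them Hist1h1b, and could not be searched. In 8 more the transcript used held no stem-loop letters, Hist1h2bp among them. The highest gene, Hist1h4d, ran 770 bases past its stem-loop, Hist1h4i 330 bases and Hist1h1e 1153 bases.

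The polyadenylation signal AATAAA or ATTAAA stood in the last 50 bases of the annotated transcript in 17 of 59 cluster genes and 10 of 15 variants. A model with less than 50 bases after the stop codon was counted as without it, so for such genes the count shows missing annotation. Counts called are read here against 52.3% of all genes above and 41.4% below. Among the 45 cluster genes with longer ends, the 17 with the signal had a median of 1.45 FPKM (9 above, 4 below) and the 28 without it 1.57 FPKM (15 above, 6 below). These groups also differed in unique windows, with medians of 77.6% and 44.0%, and in transcript length, with medians of 1254 and 531 bases, and a relation of the signal to level was not tested. Hist1h4i had the signal, and Hist1h4d did not.

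Many H2A and H2B genes lie head to head, their starts 500 bases or less apart on opposite strands, with a shared stretch of promoter between them. There were 12 such pairs, each of 1 H2A and 1 H2B gene. Of the 11 pairs without a value listed at 0, 5 differed in mean by less than 2 times, the nearest being Hist1h2bf at 1.54 FPKM and Hist1h2ad at 1.49 FPKM. The other 6 differed by more. Hist1h2ao exceeded Hist1h2bq 13.5 times, Hist1h2bc exceeded Hist1h2ac (0.419 ± 0.097 FPKM) 7.51 times and Hist1h2ap exceeded Hist1h2br (0.561 ± 0.187 FPKM) 6.32 times. The lower gene of each of these pairs also had the longer M21 transcript, and FPKM is divided by length. Hist1h2bq had 1254 bases against 480, Hist1h2ac 2482 against 1156 and Hist1h2br 1256 against 482. Hist1h2bq and Hist1h2br have 3 M21 transcripts each, and the length given is that of the longest coding one. The FPKM of these 2 genes need not have been divided by that length. In the pair known for testis expression, Hist1h2ba was at 0.698, 1.42, 1.03, 1.31 and 0.460 FPKM and Hist1h2aa at 0.202 FPKM in replicate 2 and listed at 0 otherwise. In 6 of 12 pairs the same gene was the higher in all 5 libraries. Few windows are unique in Hist1h2ao and Hist1h2ap and none in Hist1h2bq, and the part of shared reads or of transcript length in these ratios was not tested.

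**Figure D3:**
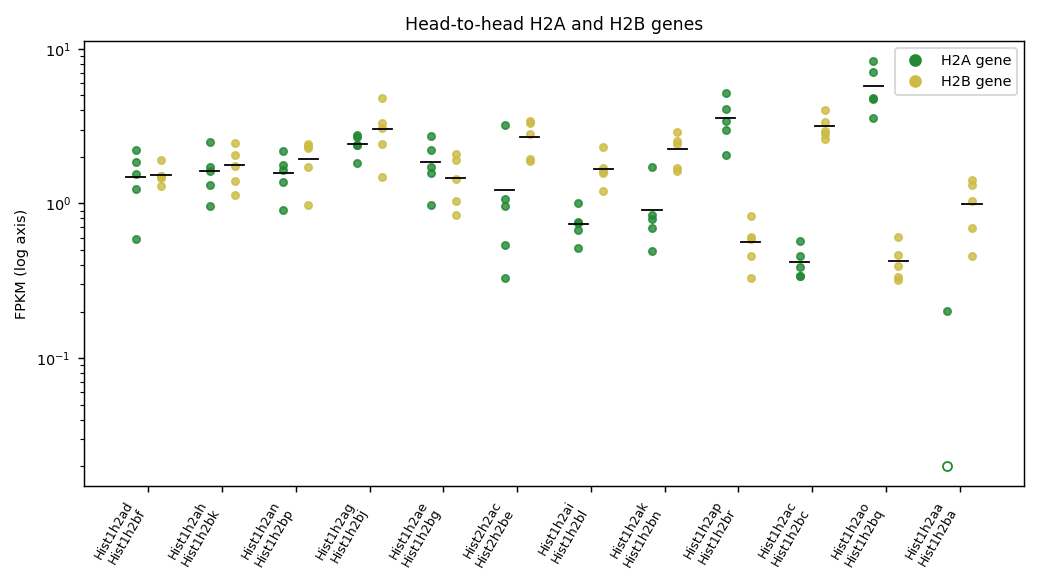
FPKM (log axis) of the H2A gene (green) and the H2B gene (yellow) of 12 head-to-head pairs, 1 point per library (5 libraries) with a bar at the mean of genes above 0 in all 5 and an open circle for libraries listed at 0. Pairs are ordered by the ratio of their means: the 5 on the left overlap, as do Hist2h2ac with Hist2h2be and Hist1h2ak with Hist1h2bn, while Hist1h2ao and Hist1h2bq stand 13.5 times apart.

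Promoters of the 2 leading cluster genes and of H2afz are shown because they hold, or lack, the elements that cluster promoters are known for. The 120 bases before the RefSeq start (GRCm38.p6, the patch series of mm10) are given 5′ to 3′ along the gene, and capitals mark the TATA box (TATAAA), the CCAAT box (read as ATTGG where it lies on the other strand) and the H1 box (AAACACA).
Hist1h4d: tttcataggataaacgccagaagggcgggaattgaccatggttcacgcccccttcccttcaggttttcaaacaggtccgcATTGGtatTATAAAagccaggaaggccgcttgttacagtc
Hist1h1b: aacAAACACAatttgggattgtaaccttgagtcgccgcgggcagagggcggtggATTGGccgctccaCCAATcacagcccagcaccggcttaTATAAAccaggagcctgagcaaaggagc
H2afz: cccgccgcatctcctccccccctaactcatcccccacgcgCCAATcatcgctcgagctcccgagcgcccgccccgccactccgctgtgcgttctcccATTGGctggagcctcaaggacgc

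These windows are chr13:23581448-23581567 (plus strand), chr13:21780626-21780745 (minus) and chr3:137864367-137864486 (plus). Over 250 bases before the start and on both strands, TATAAA stood in 25 of the 54 cluster promoters matched (46.3%), in 0 of the 12 variant promoters matched and in 12.4% of all 32851 RefSeq promoters of that length. CCAAT stood in 79.6% of cluster, 58.3% of variant and 33.8% of all promoters, and among cluster types in 18 of 18 H2A, 13 of 13 H2B and 5 of 5 H1 but 3 of 12 H4 promoters. The octamer ATTTGCAT, the site known for Pou2f1 in H2B promoters, was found in 7 H2A and 4 H2B promoters (20.4% of the cluster class) and in 1.60% of all. Windows of head-to-head partners overlap, so these are not separate cases. The H1 box was found in 4 of 5 H1 promoters and 6.25% of all. Each is a match of letters only.

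The spread between libraries was set beside the level, since low genes vary more. The SD of log2(FPKM + 1) over libraries had a median of 0.28 in the 45 cluster genes averaging 1 FPKM or more, 0.13 in the 9 such variants and 0.16 in all 10983 such genes. Between 1 and 10 FPKM the medians were 0.30 for 40 cluster genes and 0.20 for 5122 genes of any kind, and the variants H2afx and H2afj had 0.25 and 0.23. At 10 FPKM or more the medians were 0.18 for 5 cluster genes, 0.13 for 7 variants and 0.13 for 5861 genes of any kind. At like levels the classes thus stood closer together than over all their members. Cluster transcripts are short, so an FPKM stands for fewer reads in them, and the part of that in the spread was not tested. The largest SDs were those of Hist2h2ac (0.960, 3.23, 1.06, 0.331 and 0.543 FPKM), Hist1h2bm, Hist1h2bb (2.12, 1.14, 0.362, 1.97 and 0.969 FPKM), Hist1h2bj (4.84, 3.06, 1.48, 2.42 and 3.3 FPKM) and Hist1h1e.

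Cluster H1, H2A, H2B and H4 genes were as types all above their means in replicate 2, where no cluster gene averaging 1 FPKM or more had its lowest value. These types parted in other libraries, mainly replicate 3. No H3 cluster gene averaged 1 FPKM, so that type was left out. The median deviation of H2A genes from their own means was -0.10, 0.26, 0.28, -0.25 and -0.12 in replicates 1 to 5 on the log2(FPKM + 1) scale, and that of H4 genes -0.11, 0.13, 0.18, -0.07 and -0.11. H2B genes were at 0.11, 0.18, -0.18, 0.01 and -0.02, and H1 genes at 0.11, 0.09, 0.11, -0.01 and -0.24. Replicate 3 was thus high for H1, H2A and H4 and low for H2B. The variant class as a whole lay between -0.04 and 0.09, but 3 of its types, of 1 or 2 genes each, ranged about as widely as cluster types: H2A.X and H2A.J from -0.31 to 0.25, macroH2A from -0.23 to 0.15 and replacement H1 from -0.20 to 0.13. H2A.Z ranged from -0.04 to 0.11 and H3.3 from -0.15 to 0.08.

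Other gene groups were set beside these deviations. S phase genes were at -0.03, 0.08, -0.08, 0.04 and -0.02, highest in replicate 2 and lowest in replicate 3. Surface ectoderm markers were at -0.20, 0.34, 0.23, -0.18 and -0.12, high in replicates 2 and 3 as H2A and H4 genes were, with Krt5 at or under 0.292 FPKM in every library. Only 3 of the 8 neuron markers, Tubb3, Map2 and Stmn2, averaged 1 FPKM or more, and the others were not counted. Those 3 were at 0.55, 0.40, -0.32, -0.17 and -0.11. Neural progenitor markers, 11 of 12 counted, were at 0.18, 0.11, -0.21, -0.09 and -0.04. Both groups were high in replicates 1 and 2 and lowest in replicate 3, as H2B genes were. Mesenchyme markers were at -0.86, -0.34, 0.51, 0.23 and 0.36. Whether cells of other types had a part in the cluster gene deviations was not tested.

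**Figure D4:**
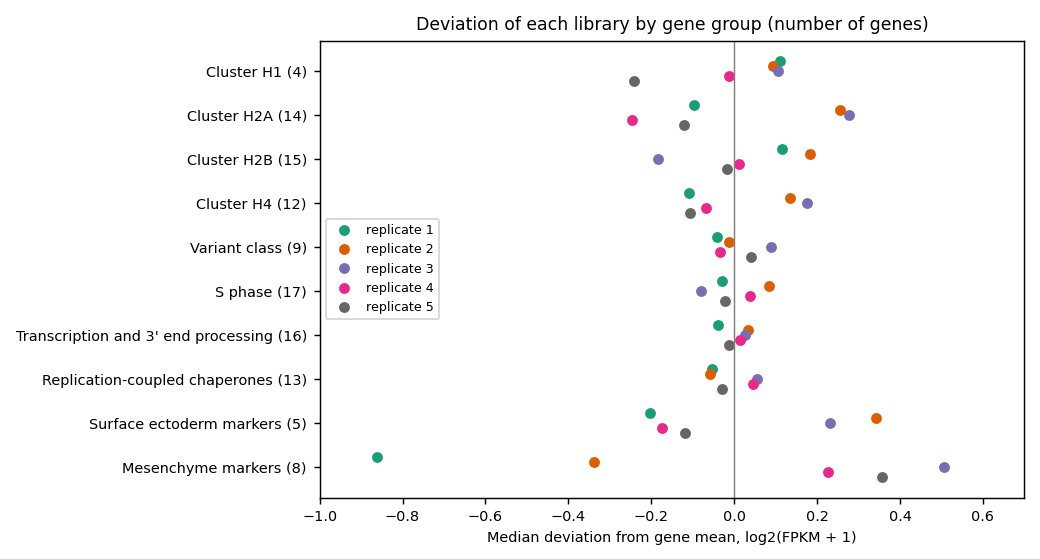
Median over genes of the deviation of each library from the gene's 5-library mean, in log2(FPKM + 1), for cluster types, the variant class and comparison groups (genes averaging 1 FPKM or more, their number in brackets); each point is 1 library. Cluster H2A and H4 are high in replicates 2 and 3, cluster H2B is low in replicate 3, and the variant class and S phase genes lie between -0.08 and 0.09.

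The genes that make, process and deposit histones were nearly all above 1 FPKM, read against 52.3% of all genes. In the S phase list 17 of 17 lay above, from Cdt1, which licenses origins, at 7.89 ± 1.34 FPKM to Rrm2, a subunit of the enzyme that makes deoxynucleotides, at 1720 ± 119 FPKM. In the list for histone gene transcription and 3′ end processing 16 of the 16 found in the table, of 18 names listed, lay above. Slbp, which binds the stem-loop, was the highest at 225, 209, 196, 204 and 192 FPKM (205 ± 12.9), above the highest cluster gene, Hist1h4d, in 4 of 5 libraries. Npat, the coactivator of cluster genes, was at 18.9 ± 2.25 FPKM and Casp8ap2, which acts with it, at 40.2 ± 3.64. The U7 particle proteins differed, Lsm10 being at 55.4 ± 4.96 FPKM and Lsm11 at 1.31 ± 0.21, the lowest of the list, no longer called above without replicate 1, 3 or 5.

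Genes listed for decay lay above 1 FPKM in 9 of the 9 found, of 11 names listed. They ran from Eri1, the exonuclease that trims the stem-loop end, at 3.15 ± 0.72 FPKM to Parn at 49.3 ± 4.2, with Zcchc11 next at 42.9 ± 9.99. Parn is a deadenylase, and a part of it in the decay of mRNAs without a poly(A) tail was not tested. Chaperones of replication-coupled deposition lay above in 13 of the 13 found, of 14 names listed, led by Nasp, which holds H3 and H4 in reserve, at 673 ± 33.3 FPKM, with Cdan1 the lowest at 2.50 ± 0.55. Asf1b, the copy known from dividing cells, was at 128 ± 13.4 FPKM and Asf1a at 10.2 ± 1.03, a difference of 3.51 ± 0.09 on the log2(FPKM + 1) scale, Asf1b higher in 5 of 5.

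Variant deposition genes lay above 1 FPKM in 17 of 17 cases. Anp32e, a chaperone that removes H2A.Z, was the highest at 1018, 1220, 1073, 1118 and 1193 FPKM (1124 ± 83.3), and Srcap, the motor of the complex that inserts H2A.Z, the lowest at 1.43 ± 0.33, not called without replicate 2 or 3. For H3.3, Hira was at 8.36 ± 1.35 FPKM, Daxx at 44.2 ± 8.49 and Atrx at 117 ± 6.34. Chaf1a, of the replication-coupled factor CAF-1, was at 10.4 ± 1.74 FPKM and exceeded Hira by 0.29 ± 0.05 in 5 of 5 libraries. Among general chaperones 12 of 15 lay above, 2 below and 1 neither way, from Nap1l5 at 0.193 ± 0.108 FPKM to Npm1 at 8828 ± 835. Outside the name rule 3 of 7 names listed were found. The centromere histone Cenpa was at 87.5, 71.6, 80.2, 76.9 and 75.3 FPKM (78.3 ± 5.99), close to Hist1h1b, and its chaperone Hjurp at 91.9 ± 9.07. The spermatid histone Hils1 lay below 1 FPKM and H2bfm was listed at 0.

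**Figure D5:**
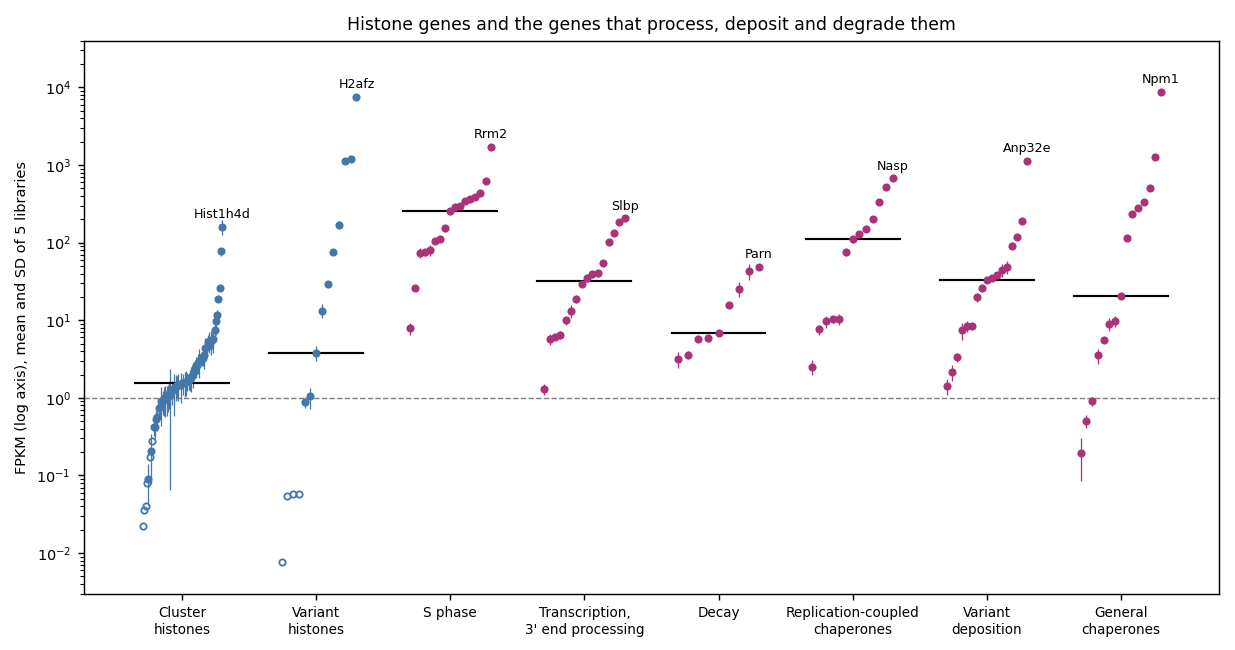
Mean FPKM (log axis) of each gene of the 2 histone classes (blue) and of 6 lists of genes acting on histones (purple), with the SD over 5 libraries as bars for genes above 0 in all 5 and open circles for the others; black lines are medians, the highest gene of each group is named, and genes at 0 in all libraries are not drawn. Of the 6 lists, only general chaperones reach below 1 FPKM, whereas 17 of the cluster genes drawn lie under it.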

How the data were processed

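The authors deposited 1 table of FPKM per gene for the 5 libraries. Per the labels' protocols, cDNA was made from poly-dT with template switching, amplified (12 cycles, then 15 in library preparation) and read single-end over 75 bases, with no strand protocol described. The build was mm10 and the tools included TopHat2 2.0.11, Cuffdiff 2.2.1, CASAVA 1.8 and cutadapt, per the submitters' processing notes; the annotation release is not given in the sources used here, nor is the handling of multiply mapped reads. FPKM are not counts, so limma 3.58.1 (R 4.3.3) fitted an intercept with a variance trend to log2(FPKM + 1) and tested it against 1 FPKM, with Benjamini-Hochberg adjustment over 19706 genes and calls at an adjusted p under 0.05. On simulated data it recovered 100% of 50 genes at each shift of -0.8, -0.4, 0.4 and 0.8 and called 3.65% of 2000 at the level. In all libraries 2095 genes, Actb among them, were listed at 0, so a 0 may be a failed estimate.

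Depth was read from values under 0.15 FPKM in transcripts over 800 bases, with 200 bases taken off the length. Of 78 identifiers 76 were in GENCODE M21, and 66 promoters matched RefSeq. Named are all variants, the 3 highest and the lowest detected gene of each cluster type, the pairs, the 5 largest SDs and the highest and lowest gene of each list; other genes named were picked after seeing their values. The members and lists were chosen with earlier results of these data known. Alternatives were pseudocounts, scalings, levels, filters, variance models, class definitions and leaving out each library.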

Additional observations from a re-analysis of the deposited data

Results flagged for a closer look

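Among 80 levels checked over the 5 libraries, 6 had 1 library far above the rest. With normally distributed values chance alone gives such a gap in about 1 of 20 groups. That rate does not apply to levels listed at 0 in all libraries but 1, where any single read gives such a gap. Hist2h2ac stood at 3.23 FPKM in replicate 2. The others rest on about 1 read: Hist2h2ab at 0.180 FPKM in replicate 1, and H2afb2 and H2afb3 at 0.293 FPKM each, H1fnt at 0.0384 FPKM and the median of the germline variants at 0.134 FPKM, all in replicate 5.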

How the results depend on the processing

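The variant minus cluster median stayed above 0 in every alternative run, at 1.22 with a pseudocount of 0.1, 1.67 over members above 0 in at least 1 library, 4.18 without germline members, 2.36 as a difference of class means and, in subsets chosen after seeing the data, 0.27 for members with at least 50% of windows unique and 1.69 for members coding in M21 under the same symbol; leaving out a library gave 0.82 to 0.95. Cluster genes called above numbered 18 at a level of 2 FPKM, 49 at 0.5 FPKM, 39 with sums set to 1000000 FPKM and 31 to 34 with a library left out; those called below numbered 7 at 0.5 FPKM, 30 at 2 FPKM, 9 with a mean of at least 0.1 FPKM and 12 to 14 with a library left out. Variants called below numbered 0 with that filter and 1 to 4 with a library left out (1 without replicate 5), and genes called below overall 3495 with that filter. Among lists, the count below became 1 for 3′ end processing and for variant deposition at 2 FPKM, 1 for general chaperones at 0.5 FPKM, and, for histones outside the name rule, 2 without a filter and 0 with the filter. The sign against the level turned at 0.5 FPKM for H1fx (0.32), Hist1h3e (0.23) and Hist2h4 (0.34), and at 2 FPKM for H2afj (-0.57), Hist1h1c (-0.40), Hist2h2ac (-0.56), Hist1h2bb (-0.44), Lsm11 (-0.38) and Srcap (-0.31), which follows from moving the level. Setting each library's FPKM sum to 1000000 raised the median gene of at least 1 FPKM by 0.30 and moved the variant deviation to 0.035 in replicate 1 and -0.12 in replicate 4, where genes with at least 50% of windows unique gave -0.11; Hist1h3e was then not called and Hist1h1c was called above. For these deviations the cause was not tested. In transcripts of 500 bases, levels near 0.118 to 0.162 FPKM rest on single reads.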
